A study of Mus musculus with 16 samples.

Results

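Toll-like receptors are the membrane receptors through which cells of the innate immune system sense microbial products and material released by dying cells. Tlr1, Tlr2, Tlr4 and Tlr6 sit at the cell surface, where Tlr2 pairs with Tlr1 or Tlr6 to bind lipoproteins and Tlr4 binds lipopolysaccharide. Tlr3, Tlr7, Tlr8, Tlr9 and Tlr13 sit in endosomes and sense nucleic acids, and most of the family signals through the adaptor Myd88 to NF-κB, whereas Tlr3 uses another adaptor. The levels of these 9 receptor genes and of Myd88 were followed in single CD45+ cells of irradiated and untreated mouse tumors. The 10 genes were taken by name from 31053 features, and all 10 were in the count matrices. Earlier results of these data were known when the list was chosen.

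The 16 libraries came from C57BL/6J mice bearing subcutaneous tumors on the right flank, grown from MC38 colorectal carcinoma cells or from Panc02-SIY cells, a pancreatic carcinoma line that expresses the SIY antigen. Each tumor was left untreated (NT) or given 1 CT-guided dose of 12 Gy (RT), and the CD45+ cells were sorted 24 h later and sequenced from the 3' ends of their transcripts, giving 4 libraries in each of the groups MC38 NT, MC38 RT, Panc02-SIY NT and Panc02-SIY RT. The text deposited with the series and the study's methods give different numbers of animals per group, so p-values measure the spread between libraries. Levels are given as CPM, the unique molecular identifiers (UMIs) of a gene per 1000000 UMIs of all genes in the same set of cells of 1 library.

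The MC38 libraries shared cell barcodes. Their 9843 barcodes were 2632 distinct sequences, of which 769 stood in all 8 MC38 libraries, whereas 17949 of the 18136 distinct Panc02-SIY barcodes stood in 1 library only. Each barcode was therefore kept only in the library of its tumor where it had most UMIs, which left 20768 of 28678 barcodes, 147 to 4452 per library, with 1385711 to 43708746 UMIs per library. The step removed 13.6 to 57.2% of the UMIs of an MC38 library and 0.154 to 0.975% of those of a Panc02-SIY library. Results that changed when all barcodes were counted are given beside the main values or, as counts of calls, in the closing section. Ptprc, which encodes CD45, averaged 456 CPM in MC38 NT and 1495 CPM in Panc02-SIY NT libraries, and 200 Panc02-SIY NT and 81 Panc02-SIY RT barcodes formed a fibroblast-like class.

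Cell classes were clusters named by marker genes, and the 10 genes were left out of the clustering. Such a name is marked "-like", and 6553 barcodes stayed unnamed. Tlr1 (chr5:64924679-64933563) and Tlr6 (chr5:64952031-64960097) lie side by side on the minus strand of mm10, 18468 bases apart. Their transcripts share 400 stretches of 60 bases, counted from every start position, so that stretches overlap and are not 400 separate regions. Reads within those stretches could not be told apart, and both levels are uncertain to that extent. No other pair of the 10 shares such a stretch. Tlr7 (chrX:167304929-167330558) and Tlr8 (chrX:167242696-167264329) are also neighbors, 40600 bases apart, while Tlr2 (chr3:83836272-83841767), Tlr3 (chr8:45395665-45411080), Tlr4 (chr4:66827584-66930284), Tlr9 (chr9:106222598-106226883), Tlr13 (chrX:106143204-106160493) and Myd88 (chr9:119335934-119341411) lie apart. Myd88 overlaps Slc22a14 on its own strand and Acaa1a on the other, and Tlr3 overlaps Gm45542 on the other strand.

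Promoter windows are shown for 3 genes of the list whose CD45+ level was higher after radiation in Panc02-SIY and whose window held a motif of the pathway's own factors. RefSeq windows of 250 bases before to 50 after a start site (GRCm38.p6) were matched for 8 of the 10 genes, and none was matched for Tlr4 and Tlr7. The core of the interferon-response element, GAAANNGAAA, was searched on both strands and stands in 3.45% of 32544 mouse windows. It was found once in the Myd88 window (chr9:119339969-119340268, minus strand), at positions -40 to -31 from the start, and as a pair of overlapping matches on the opposite strand of a Tlr6 window (chr5:64959117-64959416, minus strand), at positions -116 to -101. The NF-κB consensus was found in 8.49% of all windows, in the Tlr2 window (chr3:83841559-83841858, minus strand) at positions -173 to -163 and -8 to 1, and in the Tlr3 window (chr8:45410331-45410630, minus strand) at positions -211 to -202. Capitals mark the interferon-response core in Myd88 and Tlr6 and the NF-κB consensus in Tlr2.
Myd88: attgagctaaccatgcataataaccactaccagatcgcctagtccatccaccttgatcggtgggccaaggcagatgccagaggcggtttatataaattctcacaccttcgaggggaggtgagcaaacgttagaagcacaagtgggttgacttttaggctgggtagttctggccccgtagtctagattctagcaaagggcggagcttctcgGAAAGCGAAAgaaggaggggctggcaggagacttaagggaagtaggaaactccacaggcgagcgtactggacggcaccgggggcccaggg
Tlr2: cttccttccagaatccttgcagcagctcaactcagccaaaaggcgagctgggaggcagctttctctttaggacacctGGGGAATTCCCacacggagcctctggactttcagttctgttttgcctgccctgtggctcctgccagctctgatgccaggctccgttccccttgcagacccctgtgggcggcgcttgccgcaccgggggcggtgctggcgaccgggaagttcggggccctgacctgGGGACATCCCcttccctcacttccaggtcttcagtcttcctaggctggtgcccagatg
Tlr6: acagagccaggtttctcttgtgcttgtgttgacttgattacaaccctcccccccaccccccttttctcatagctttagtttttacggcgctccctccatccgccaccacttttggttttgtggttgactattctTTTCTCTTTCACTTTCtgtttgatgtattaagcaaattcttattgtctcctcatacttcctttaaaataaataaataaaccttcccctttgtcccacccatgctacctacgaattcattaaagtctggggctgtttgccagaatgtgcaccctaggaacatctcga
A match of letters is a description of the window and not a bound site, and no other window of the matched genes held either motif.

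Among the surface receptors, Tlr2 was spread over the myeloid classes of Panc02-SIY tumors. Its level averaged 237 ± 31.9 CPM (SD, 8 libraries, NT and RT together) in neutrophil-like, 152 ± 29.2 in monocyte-like and 95.5 ± 15.9 in macrophage-like cells, each above the next by more than the sum of both SDs. Tlr2 stood at 46.8 ± 31.8 CPM in cDC2-like cells (6 libraries) and at 2.54 ± 1.41 CPM in T cell-like cells. In MC38 tumors, Tlr2 averaged 218 ± 38.3 CPM in macrophage-like cells and 62.4 ± 35.2 CPM in cDC2-like cells (4 libraries). Tlr4 and Tlr6 were highest in neutrophil-like cells of Panc02-SIY, at 84.7 ± 23.2 and 82.8 ± 20.2 CPM. The next class was macrophage-like for Tlr4, at 36.5 ± 9.88 CPM, and monocyte-like for Tlr6, at 18.9 ± 6.04 CPM. Both gaps were larger than the sum of both SDs.

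Tlr1 did not follow its partner Tlr2. In Panc02-SIY, Tlr1 was highest in macrophage-like cells at 76.2 ± 21.0 CPM, above monocyte-like cells at 35.6 ± 10.5 CPM, and stood at 6.17 ± 4.08 CPM in the neutrophil-like cells, the class with the highest Tlr2 and Tlr6 levels. The next classes, cDC2-like (24.3 ± 16.6 CPM), B cell-like (22.7 ± 24.6 CPM) and mature DC-like cells (20.6 ± 7.20 CPM), did not differ beyond their spread. In MC38, Tlr1 averaged 30.2 ± 3.796 CPM in macrophage-like cells.

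**Figure D1:**
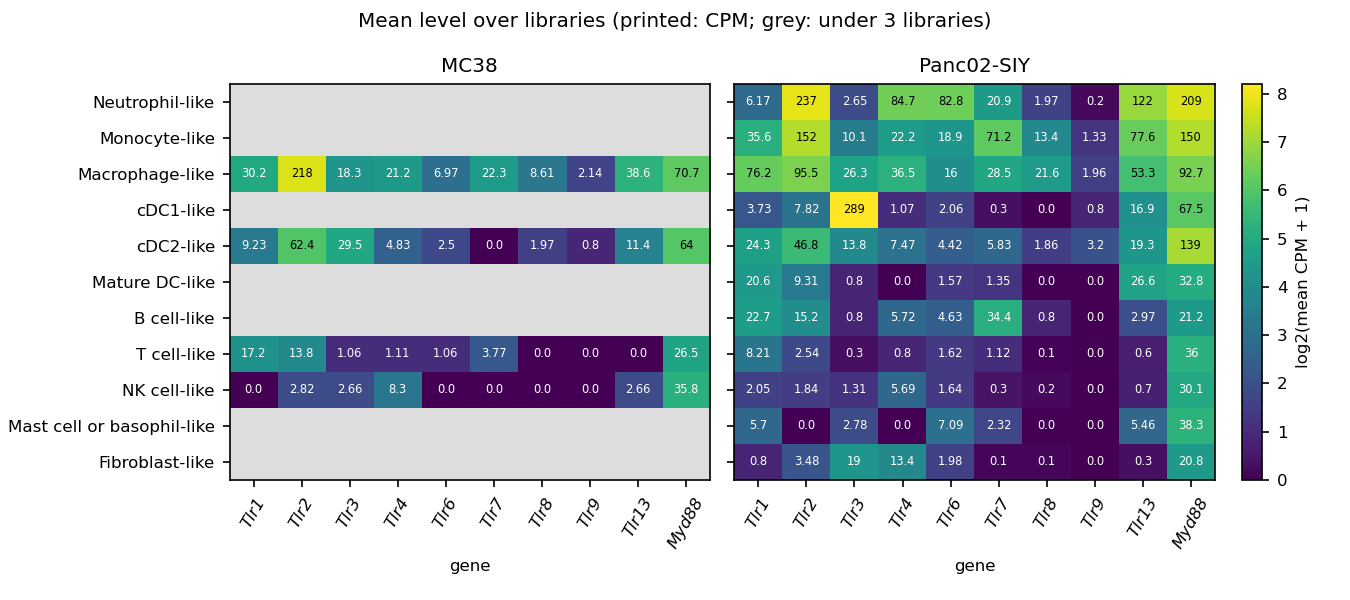
Mean level of each gene (columns) in each cell class (rows), MC38 on the left and Panc02-SIY on the right, NT and RT libraries together. The printed number is the mean CPM over libraries with at least 10 barcodes of the class, color gives log2(mean CPM + 1), and grey marks classes with under 3 such libraries. Tlr3 stands at 289 CPM in cDC1-like cells, and Tlr2, Tlr4, Tlr6, Tlr13 and Myd88 have their highest Panc02-SIY value in neutrophil-like cells.

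Among the endosomal receptors, Tlr3, the sensor of double-stranded RNA, was highest in cDC1-like cells, the dendritic cell class that cross-presents antigen to CD8 T cells. In the 4 Panc02-SIY libraries with enough cDC1-like barcodes, Tlr3 read 343.9 and 213.4 CPM untreated and 312.9 and 287.0 CPM irradiated. The next class, macrophage-like cells, averaged 26.3 ± 14.4 CPM (8 libraries). No MC38 library held 10 cDC1-like barcodes, and the 12 such barcodes of MC38 together gave 59 Tlr3 UMIs, or 249 CPM (exact Poisson 95% interval 190 to 322, covering counting error only). Tlr3 took no part in naming these cells.

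Tlr7, which binds single-stranded RNA, was highest in monocyte-like cells of Panc02-SIY among the classes with enough libraries, at 71.2 ± 22.7 CPM. B cell-like cells followed at 34.4 ± 25.7 CPM, macrophage-like cells at 28.5 ± 7.10 CPM and neutrophil-like cells at 20.9 ± 8.34 CPM, and neighbors in that order overlapped. Plasmacytoid DC-like barcodes, a cell type known for Tlr7 and Tlr9, numbered 24 in both tumors together. They held 51 Tlr7 UMIs, or 195 CPM (145 to 257), and 3 Tlr9 UMIs, or 11.5 CPM (2.37 to 33.6). All of these UMIs came from the 19 Panc02-SIY barcodes. The 5 MC38 barcodes, with 17264 UMIs of all genes, held 0 of either. Tlr9, the receptor of unmethylated CpG DNA, was near the limit of these counts elsewhere, with a highest Panc02-SIY mean of 3.20 ± 5.17 CPM in cDC2-like cells.

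Tlr8, the neighbor of Tlr7, was highest in macrophage-like (21.6 ± 5.18 CPM) and monocyte-like cells (13.4 ± 8.13 CPM) of Panc02-SIY, and the other classes of the plot of levels by class had means of 1.97 CPM or less. Tlr13, a receptor for bacterial ribosomal RNA, followed the order of Tlr2: 122 ± 19.6 CPM in neutrophil-like, 77.6 ± 17.3 in monocyte-like and 53.3 ± 13.4 in macrophage-like cells. The first of those steps was larger than the sum of both SDs and the second was not, though it was larger than either. Myd88, the adaptor, had UMIs in every class. Its Panc02-SIY mean ran from 209 ± 29.8 CPM in neutrophil-like, 150 ± 26.2 in monocyte-like and 139 ± 39.1 in cDC2-like cells down to 20.8 ± 2.91 CPM in fibroblast-like cells, with T cell-like cells at 36.0 ± 4.40 CPM.

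The classes therefore did not contribute alike to the UMIs of the 10 genes. In MC38, macrophage-like cells made 55.4% of NT barcodes and 85.6% of NT UMIs, and they held 80.8 to 97.7% of the UMIs of each listed gene. In untreated Panc02-SIY tumors, macrophage-like cells made 10.8% of UMIs and held 32.1% of Tlr2 UMIs, beside 27.0% in neutrophil-like and 18.4% in monocyte-like cells, while cDC1-like cells made 1.58% of UMIs and held 41.6% of Tlr3 UMIs. T cell-like cells held the largest share of Myd88 UMIs in untreated Panc02-SIY, at 31.3%. These shares are means over 4 libraries, and the untreated Panc02-SIY libraries were unlike. Their macrophage-like cells held 11, 153, 79 and 735 Tlr2 UMIs, from 18, 112, 69 and 481 barcodes. The mean shares therefore need not describe any single library.

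The first comparison asked whether radiation changed the 10 genes within a tumor 24 h later. Calls are from edgeR's quasi-likelihood test on UMI sums per library, where the adjusted p was under 0.1 and the fold over 1.3, with Benjamini-Hochberg adjustment over all genes tested. Over all CD45+ barcodes of Panc02-SIY, 7 of the 10 genes were called, all higher in RT, namely Tlr1, Tlr2, Tlr4, Tlr6, Tlr7, Tlr13 and Myd88. In the same test 14.7% of 12447 genes were called in either direction and 7.69% were called higher. The median log2 fold change was 0.60 over the 10 genes and -0.03 over all genes tested.

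Tlr2 read 20.2, 26.6, 27.3 and 28.3 CPM in the NT libraries and 52.5, 46.6, 58.1 and 53.2 CPM in the RT libraries. The groups did not overlap, and the log2 fold change was 0.95 ± 0.15 (SE, adjusted p = 0.000975). Tlr13 read 13.999, 15.1, 15.7 and 12.3 CPM untreated and 22.9, 24.1, 26.4 and 25.7 CPM irradiated. Its log2 fold change was 0.73 ± 0.11 (adjusted p = 0.000975), again without overlap. Myd88 read 55.4, 47.3, 55.9 and 49.2 CPM untreated and 82.8, 69.0, 87.0 and 70.6 CPM irradiated, a log2 fold change of 0.50 ± 0.10 (adjusted p = 0.00362).

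The Tlr2 partner Tlr6 read 6.31, 7.92, 5.93 and 4.30 CPM in NT and 18.01, 11.4, 13.1 and 8.75 CPM in RT libraries. All RT values lay above the NT values, with a log2 fold change of 0.98 ± 0.24 (adjusted p = 0.0115). Tlr4 read 7.69, 10.97, 9.06 and 12.6 CPM in NT and 18.6, 14.7, 18.5 and 17.3 CPM in RT libraries, a log2 fold change of 0.66 ± 0.15 (adjusted p = 0.00742) without overlap. Tlr1 had the smallest fold change of the 7, from 15.6 to 18.4 CPM over NT libraries to 19.5 to 26.1 CPM over RT libraries (log2 fold change 0.40 ± 0.12, adjusted p = 0.0367). For Tlr7 the groups overlapped, since NT replicate 3 stood at 13.97 CPM and the other NT libraries at 6.82 to 7.54 CPM, against 11.2 to 15.3 CPM in RT libraries. Its log2 fold change was 0.54 ± 0.20 (adjusted p = 0.0804), and this call was lost in 11 of 22 other settings, among them the removal of any single Panc02-SIY library other than NT replicate 3 and RT replicate 4 (adjusted p = 0.106 to 0.169).

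The other 3 genes were not called. Tlr3 had a log2 fold change of 0.01 ± 0.29, with a 95% interval of -0.56 to 0.59. Tlr8 had 0.38 ± 0.35 (-0.31 to 1.06), and Tlr9, at 0.19 to 1.05 CPM in these libraries, had 0.73 ± 0.50 (-0.24 to 1.71). Tlr8 was called without NT replicate 4 (0.95, adjusted p = 0.0619). For Tlr8 and Tlr9, changes of the sizes within those intervals were neither shown nor excluded by these libraries.

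**Figure D2:**
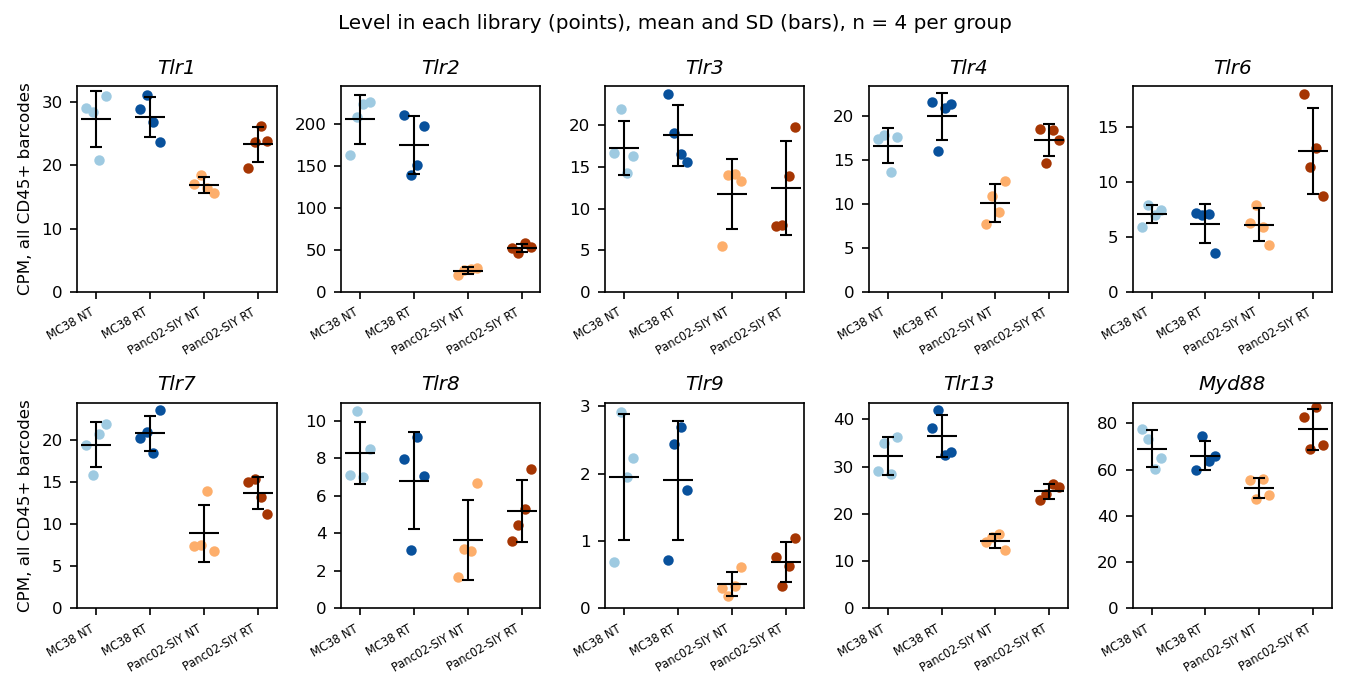
Level of each gene in CPM over all kept CD45+ barcodes, 1 panel a gene. Each point is 1 library, and the black bars give the mean and SD of the 4 libraries of MC38 NT, MC38 RT, Panc02-SIY NT and Panc02-SIY RT. Tlr2 lies at 20.2 to 28.3 CPM in Panc02-SIY NT, at 46.6 to 58.1 CPM in Panc02-SIY RT and at 139 to 226 CPM in MC38.

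The same test inside single classes called none of the 10 genes in Panc02-SIY. It covered 9 genes in macrophage-like cells (5.10% of all genes tested were called there), 9 in monocyte-like (0.647%), 6 in neutrophil-like (0.0573%), 5 in conventional DC-like cells, in which cDC1-, cDC2- and mature DC-like barcodes were pooled (0.201%), 4 in T cell-like (3.85%), 2 in NK cell-like (2.29%) and none in B cell-like cells (0% of 1731 genes). At an unadjusted p under 0.05 the counts were 3, 2, 1, 1, 1 and 0, and DESeq2 called none of these genes either. In monocyte-like cells, Tlr2 read 87.9, 158, 179 and 185 CPM in NT and 154, 154, 151 and 151 CPM in RT libraries, a log2 fold change of -0.08 ± 0.18 (adjusted p = 0.957). In neutrophil-like cells, Tlr2 read 208, 273, 192 and 208 CPM in NT and 247, 276, 260 and 235 CPM in RT libraries (0.19 ± 0.16, adjusted p = 0.790). Both classes thus had a high Tlr2 level in untreated and irradiated tumors.

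These counts of 0 moved with the settings. Without Panc02-SIY NT replicate 1, which held 18 macrophage-like barcodes, Tlr2 (0.50, adjusted p = 0.0674) and Tlr13 (0.48, adjusted p = 0.0961) were called in macrophage-like cells and Tlr3 (-1.44, adjusted p = 0.0353) in conventional DC-like cells. Tlr13 was also called in macrophage-like cells when barcodes under 500 genes or over 10% mitochondrial UMIs were dropped (0.55, adjusted p = 0.0493) and at the finer clustering (0.49, adjusted p = 0.0887), and Tlr2 with counts thinned to the depth of the shallowest library (0.51, adjusted p = 0.0996). With classes set by markers in each barcode, Tlr4 (1.18, adjusted p = 0.0930) and Myd88 (0.89, adjusted p = 0.0556) were called in monocyte-like cells. Tlr3 in conventional DC-like cells was called with no filter on low counts (-1.12, adjusted p = 0.0115), and Tlr1 in T cell-like cells with the replicate block (0.81, adjusted p = 0.0804).

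In macrophage-like cells, Tlr2 read 103, 76.6, 72.5 and 84.3 CPM in NT and 103, 98.2, 115 and 111 CPM in RT libraries of Panc02-SIY, a log2 fold change of 0.47 ± 0.16. Its adjusted p was 0.124, and it passed both thresholds when all barcodes were counted in every library (0.46, adjusted p = 0.0365). Tlr13 had 0.43 ± 0.17 (adjusted p = 0.183) and Tlr3 0.58 ± 0.26 (adjusted p = 0.251) in the same class.

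Other single-class values pointed in both directions without passing the threshold. In monocyte-like cells, Tlr7 had a log2 fold change of -0.64 ± 0.23 (adjusted p = 0.356) and Tlr13 of -0.37 ± 0.19 (adjusted p = 0.547), both opposite in sign to the CD45+ value. Myd88 had 0.38 ± 0.15 (adjusted p = 0.418) and Tlr6 0.57 ± 0.32 (adjusted p = 0.600) in these cells. In neutrophil-like cells, Tlr6 had 0.49 ± 0.20 (adjusted p = 0.527) and Tlr7 -0.57 ± 0.39 (adjusted p = 0.728). In conventional DC-like cells, Tlr3 read 46.1, 271, 179 and 163 CPM in NT and 55.1, 39.3, 73.9 and 124 CPM in RT libraries (-1.17 ± 0.43, adjusted p = 0.338). Of all barcodes, cDC2-like cells, which carried little Tlr3, made 0.530% in NT and 1.24% in RT, and cDC1-like cells 0.516% and 0.420%. Within the pool, 57 of 141 NT and 42 of 217 RT barcodes were cDC1-like.

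**Figure D3:**
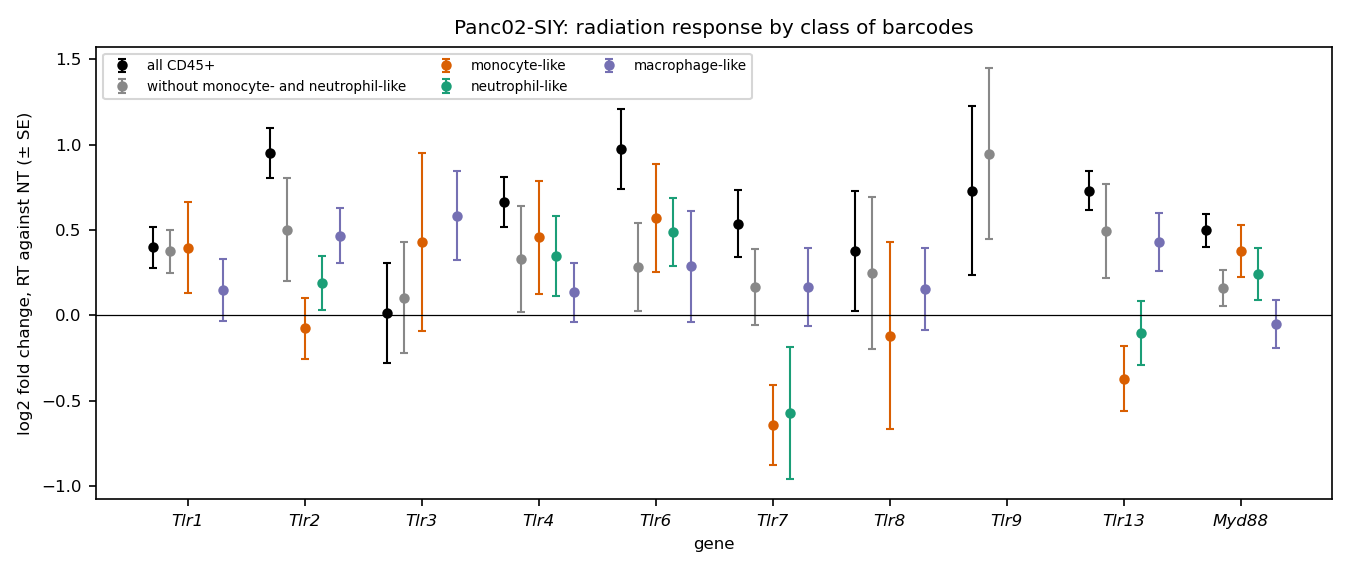
Log2 fold change of RT against NT in Panc02-SIY with its SE (vertical axis) for each gene (horizontal axis), over all CD45+ barcodes, over those barcodes without monocyte- and neutrophil-like cells, and inside 3 classes. Tlr2 stands at 0.95 over all CD45+ barcodes, at 0.50 without monocyte- and neutrophil-like cells, at -0.08 in monocyte-like cells and at 0.47 in macrophage-like cells.

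The make-up of the CD45+ cells moved with the 7 genes. Monocyte-like cells made 1.03 to 4.64% of NT barcodes and 5.69 to 8.82% of RT barcodes in Panc02-SIY, and their mean share of UMIs was 3.20% in NT and 12.9% in RT. Neutrophil-like cells made on average 7.68% of NT and 13.2% of RT barcodes, and 2.92% and 5.75% of UMIs. T cell-like cells made 45.1% of UMIs in NT and 29.7% in RT. Not every class with low receptor levels fell. Of the barcodes pooled over libraries, NK cell-like cells, with Tlr2 at 1.76 CPM, made 7.85% in NT and 14.4% in RT. Unnamed barcodes made 37.35% and 26.3%. The share of Tlr2 UMIs held by monocyte-like cells was 18.4% in NT and 37.2% in RT, that of Tlr7 UMIs 30.02% and 52.8%, and that of Myd88 UMIs 7.62% and 28.4%. Neutrophil-like cells held 32.8% of Tlr6 UMIs in NT and 43.6% in RT. The Panc02-SIY levels of the monocyte marker list over all CD45+ barcodes moved the same way, at 705 to 1237 CPM in NT and 1429 to 2000 CPM in RT for its 8 genes together. None of the 8 was at 0.

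Without the monocyte- and neutrophil-like barcodes, a comparison chosen after these values were seen, none of the 10 genes was called in Panc02-SIY by the same edgeR test, with 1 of 10 at an unadjusted p under 0.05. Tlr2 then had a log2 fold change of 0.50 ± 0.30 (adjusted p = 0.365), Tlr13 of 0.49 ± 0.27 (0.324), Tlr6 of 0.28 ± 0.26 (0.573), Tlr4 of 0.33 ± 0.31 (0.591), Tlr7 of 0.17 ± 0.22 (0.721) and Myd88 of 0.16 ± 0.10 (0.397). Tlr1 had 0.38 ± 0.12 (adjusted p = 0.0836), which lay just under the fold threshold. Without macrophage-like barcodes 5 of the 10 were called and without fibroblast-like barcodes 6. The SE of Tlr2 was larger without monocyte- and neutrophil-like barcodes than over all CD45+ barcodes. The shares of all genes called in these fits are not given here, so their counts of calls are no result about the 10 genes as such.

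**Figure D4:**
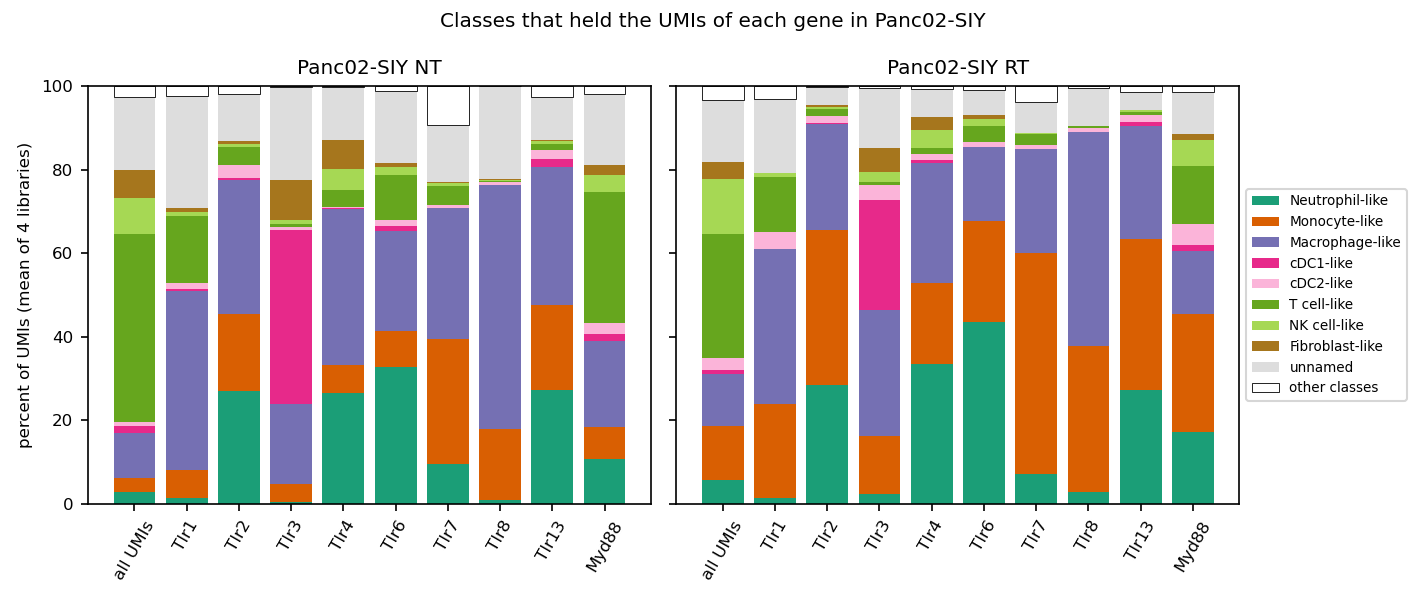
Mean percent of a gene's UMIs held by each cell class in Panc02-SIY NT (left) and RT (right) libraries, with all UMIs of the libraries in the first bar of each panel and Tlr9 left out. Monocyte-like cells hold 3.20% of all UMIs and 18.4% of Tlr2 UMIs in NT, and 12.9% and 37.2% in RT.

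In MC38, none of the 10 genes was called after radiation over all CD45+ barcodes by the edgeR test, where 11.7% of all genes were called, although 2 of the 10 had an unadjusted p under 0.05, and DESeq2 called none of the 10. Tlr2 read 164, 208, 225 and 226 CPM in NT and 211, 139, 152 and 197 CPM in RT libraries, which overlapped. Its log2 fold change was -0.15 ± 0.15, with a 95% interval of -0.43 to 0.14. Myd88 had 0.05 ± 0.10 (-0.15 to 0.25), Tlr4 had 0.38 ± 0.16 (adjusted p = 0.156) and Tlr13 had 0.27 ± 0.12 (adjusted p = 0.172). Macrophage-like cells made 55.4% of barcodes in NT and 53.1% in RT. Many MC38 barcodes were shared between NT and RT libraries before the richest copy was kept, so the MC38 groups may not be fully separate.

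In MC38 macrophage-like cells, Tlr4 was the only one of 9 genes called, against 13.4% of all genes. It read 20.9, 20.5, 15.7 and 18.3 CPM in NT and 27.3, 16.8, 25.4 and 24.5 CPM in RT libraries, so the groups overlapped through RT replicate 2. Its log2 fold change was 0.44 ± 0.16 (adjusted p = 0.0836), and the call held in 2 of 22 other settings, with adjusted p from 0.0581 to 0.438. Without RT replicate 2 it was called and without any other single library it was not. Tlr2 read 192, 234, 251.1 and 243 CPM in NT and 261, 154, 178 and 227 CPM in RT libraries (-0.06 ± 0.14), and Tlr13 had 0.31 ± 0.15 (adjusted p = 0.190). In T cell-like cells 4 genes were tested and none was called by edgeR or DESeq2 (0.294% of all genes by edgeR, none of the 4 at an unadjusted p under 0.05).

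The difference between the tumors in the radiation response was tested as an interaction. Over all CD45+ barcodes it called 1 of the 10 genes, Tlr2, whose response was lower in MC38 by 1.10 ± 0.21 on the log2 scale (-1.10, adjusted p = 0.0776), against 0.345% of all genes. Without MC38 NT replicate 2, 3 or 4 or MC38 RT replicate 3 the Tlr2 call was lost, at -1.10 to -1.04 with adjusted p from 0.120 to 0.167. Tlr6 had -1.14 ± 0.36 (adjusted p = 0.215), Myd88 -0.45 ± 0.14 (0.207) and Tlr13 -0.46 ± 0.16 (0.258). Myd88 was called in 3 and Tlr13 in 2 of 29 other settings. Over all classes the interaction had 3 calls when all barcodes were counted. In macrophage-like cells none of 9 was called (0.0881% of all genes, 1 of the 9 at an unadjusted p under 0.05), with Tlr2 at -0.53 ± 0.21 (adjusted p = 0.715). In T cell-like cells none of 4 was called (0% of all genes, none of the 4 at an unadjusted p under 0.05). DESeq2 called none in these classes. Without monocyte- and neutrophil-like barcodes the CD45+ value of Tlr2 was -0.69 ± 0.42 (adjusted p = 0.692). Without macrophage-like barcodes it was -1.58 ± 0.33 (adjusted p = 0.234).

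The next comparison set the tumors against each other. Over all CD45+ barcodes of untreated tumors, 9 of the 10 genes were higher in MC38, where 61.1% of all genes were called and 29.1% were called higher, so most genes tested differed. Tlr2 differed most, by 3.20 ± 0.16 on the log2 scale (adjusted p = 2.43e-10), from 25.6 ± 3.67 CPM in Panc02-SIY to 206 ± 29.2 CPM in MC38. Because the MC38 libraries shared barcodes, they may not be fully separate replicates, and the SEs and p-values between tumors carry that limit. Tlr9 differed by 2.44 ± 0.50, Tlr13 by 1.38 ± 0.12, Tlr7 by 1.34 ± 0.20, Tlr8 by 1.27 ± 0.36, Tlr1 by 0.89 ± 0.12, Tlr4 by 0.88 ± 0.15, Tlr3 by 0.71 ± 0.30 and Myd88 by 0.61 ± 0.10. Tlr9 was not tested with only the groups compared in the fit or with thinned counts, where it was too low for the filter, in untreated or irradiated tumors. Tlr6 was not called, at 0.42 ± 0.25 (adjusted p = 0.149), but it was called in 3 of 22 other settings, among them without Panc02-SIY NT replicate 2 (0.59, adjusted p = 0.0679) and with the replicate block (0.47, adjusted p = 0.0671). The Tlr3 call was lost in 4 of 22, among them without MC38 NT replicate 2 (0.59, adjusted p = 0.133), with library sizes alone (0.51, adjusted p = 0.146) and with no filter on low counts (0.62, adjusted p = 0.146).

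Inside macrophage-like cells the picture was different, with Tlr2 higher and Tlr1, Tlr4 and Tlr8 lower in untreated MC38, while 49.2% of all genes were called. Tlr2 read 192 to 251.1 CPM over MC38 and 72.5 to 103 CPM over Panc02-SIY libraries, a log2 fold change of 1.67 ± 0.15 (adjusted p = 1.52e-08). Tlr1 read 33.7, 30.8, 22.8 and 32.7 CPM in MC38 and 113, 89.1, 60.5 and 52.0 CPM in Panc02-SIY, without overlap, and had a log2 fold change of -1.05 ± 0.18 (adjusted p = 4.40e-05). Tlr4 had -0.88 ± 0.16 (adjusted p = 0.000142), although Panc02-SIY replicate 1, with 18 macrophage-like barcodes, stood at 18.8 CPM and within the MC38 range of 15.7 to 20.9 CPM. Tlr8 read 7.92 to 12.0 CPM in MC38 and 16.5 to 25.7 CPM in Panc02-SIY (-1.12 ± 0.23, adjusted p = 0.000440).

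The other 5 genes tested in these cells were not called. Tlr7 had a log2 fold change of -0.01 ± 0.21 (95% interval -0.42 to 0.39) and Tlr13 of -0.13 ± 0.16 (-0.45 to 0.18). Myd88 had -0.31 ± 0.13 (adjusted p = 0.0605), under the fold threshold, and was called in 2 of 22 other settings. Tlr3 had -0.46 ± 0.25 and Tlr6 -0.59 ± 0.30, and both were called lower when all barcodes were counted (adjusted p = 0.0480 for Tlr3 and 0.0777 for Tlr6). Tlr6 was also called lower without Panc02-SIY NT replicate 4 (-0.92, adjusted p = 0.0340) and with the replicate block (-0.63, adjusted p = 0.0885), and Tlr3 and Tlr6 were each called in 5 of 22 other settings. For Tlr1, Tlr4 and Tlr8, called in both, the CD45+ value and the macrophage-like value therefore had opposite signs in the same tumors. Signs were also opposite for Tlr3, Tlr6, Tlr7, Tlr13 and Myd88, which were not called in macrophage-like cells. Of the genes tested in both, only Tlr2 kept its sign.

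After radiation, the macrophage-like difference between tumors covered 6 genes, where 50.2% of all genes were called. Tlr2 was higher in MC38 RT by 1.14 ± 0.15 (adjusted p = 1.83e-06), while Tlr1 (-1.08 ± 0.18), Tlr3 (-0.71 ± 0.25), Tlr4 (-0.58 ± 0.17), Tlr6 (-1.22 ± 0.33) and Tlr8 (-1.38 ± 0.25) were lower, with adjusted p from 4.44e-05 for Tlr1 to 0.0244 for Tlr3. The Tlr3 call was lost without MC38 RT replicate 4 (-0.60, adjusted p = 0.100012) and without Panc02-SIY RT replicate 3 (-0.50, adjusted p = 0.101). The Tlr6 value includes Panc02-SIY RT replicate 1, at 37.5 CPM from 12 UMIs, where the other RT libraries of that tumor stood at 10.3 to 14.7 CPM. Over all CD45+ barcodes, 58.5% of all genes were called. Tlr2 (2.10 ± 0.15), Tlr9 (1.87 ± 0.50), Tlr7 (1.00 ± 0.20), Tlr13 (0.91 ± 0.12), Tlr3 (0.88 ± 0.32), Tlr1 (0.60 ± 0.13) and Tlr4 (0.60 ± 0.16) were higher in MC38 RT. With library sizes alone in place of TMM scaling, the median over all genes moved from 0.00 to -0.37, and the calls of Tlr1 (0.22, adjusted p = 0.153), Tlr3 (0.51, adjusted p = 0.163) and Tlr4 (0.22, adjusted p = 0.233) were lost. Tlr3 was also not called with no filter on low counts (0.71, adjusted p = 0.111). Tlr6 was lower (-0.72 ± 0.26, adjusted p = 0.0266), but it was not called without MC38 RT replicate 4 (-0.47, adjusted p = 0.152), and without monocyte- and neutrophil-like barcodes it was higher (0.56 ± 0.28, adjusted p = 0.0881). Tlr8 (0.74, adjusted p = 0.101) was called higher in 7 of 22 other settings, among them with the replicate block (0.73, adjusted p = 0.0632) and without MC38 RT replicate 2 (0.95, adjusted p = 0.0430) or Panc02-SIY RT replicate 4 (0.90, adjusted p = 0.0574).

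**Figure D5:**
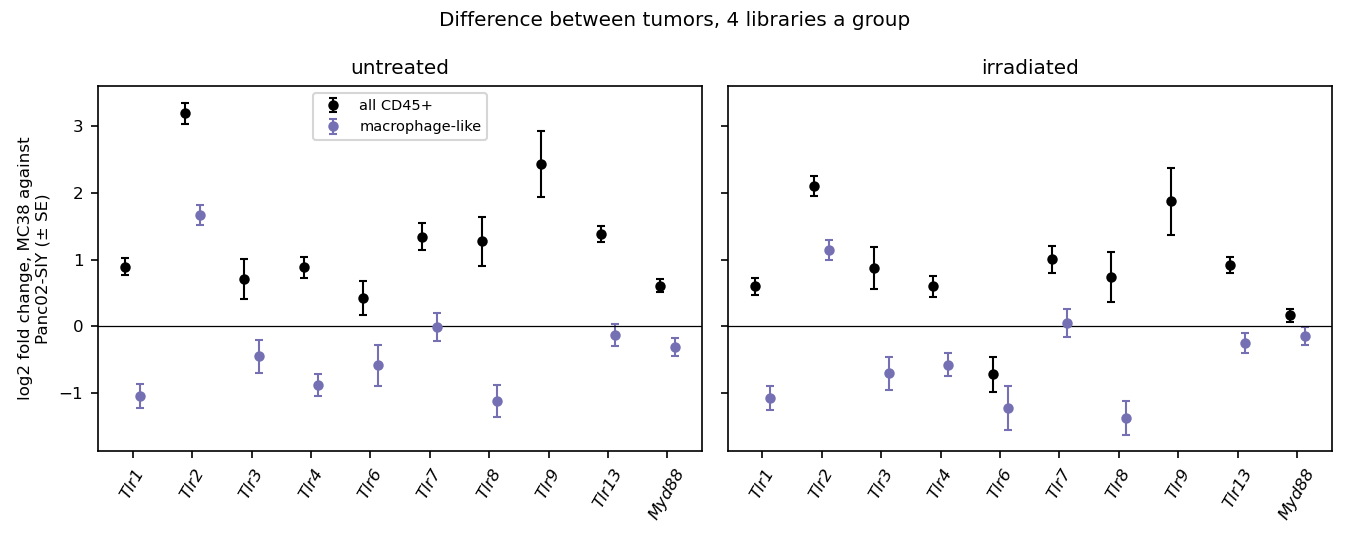
Log2 fold change of MC38 against Panc02-SIY with its SE for each gene, in untreated (left) and irradiated (right) tumors, over all CD45+ barcodes and in macrophage-like cells. Tlr1 lies at 0.89 over all CD45+ barcodes and at -1.05 in macrophage-like cells of untreated tumors, whereas Tlr2 lies above 0 in both.

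The make-up of the cells differed between the tumors. Macrophage-like cells made 85.6% of MC38 NT UMIs and 10.8% of Panc02-SIY NT UMIs. Without them the CD45+ test of untreated tumors covered 8 of the 10 genes and called 2, Tlr2 (1.71 ± 0.24) and Tlr3 (1.19 ± 0.48), with Tlr4 at -0.53 ± 0.46. The share of all genes called in that fit is not given here, so its count is no result about the 10 genes as such. The macrophage-like cells themselves fell into different clusters in each tumor. One cluster held 547 of the 763 MC38 NT and 482 of the 713 MC38 RT macrophage-like barcodes, and another held 511 of the 680 Panc02-SIY NT and 428 of the 629 Panc02-SIY RT barcodes. The 51 Panc02-SIY RT barcodes in the main MC38 cluster read 170 CPM of Tlr2 (exact Poisson 95% interval 137 to 208), 54.2 CPM of Tlr1 (36.6 to 77.4) and 47.0 CPM of Tlr4 (30.7 to 68.9). The barcodes were pooled over the RT libraries, and these intervals cover counting error only. No difference between the tumors within that cluster was tested.

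The monocyte marker list also differed in macrophage-like cells, at 1350 to 2463 CPM for its 8 genes together in MC38 NT and 148 to 371 CPM in Panc02-SIY NT, and at 2872 to 3490 CPM and 318 to 578 CPM in the RT groups. The macrophage list of 11 genes read 24800 to 27260 CPM in MC38 NT and 8948 to 17610 CPM in Panc02-SIY NT. No gene of either list was at 0 in any group, and the part of these differences in the receptor values was not tested.

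In conventional DC-like cells of untreated tumors, Tlr3 was lower in the 3 MC38 libraries tested, by the same test (-2.16 ± 0.58, adjusted p = 0.0388). It was the only one of 5 genes called, against 12.9% of all genes. The call was lost without MC38 NT replicate 1 (-2.02, adjusted p = 0.117) or 4 (-2.11, adjusted p = 0.114) and with thinned counts (-1.89, adjusted p = 0.178). Under the cell filter and the marker gate too few libraries held enough of these barcodes for a test. Tlr2 was called in 3 of 19 other settings, among them without Panc02-SIY NT replicate 3 (2.37, adjusted p = 0.00401). Tlr3 read 26.5, 41.9 and 32.8 CPM in 3 MC38 libraries and 46.1, 271, 179 and 163 CPM in Panc02-SIY. MC38 NT replicate 2 held 7 conventional DC-like barcodes, under the minimum for a test, and was left out. Pooled over all untreated MC38 libraries, replicate 2 included, the conventional DC-like barcodes held 56 Tlr3 UMIs, or 56.8 CPM. The pooled value lay above each of the 3 tested MC38 libraries, so replicate 2 read higher than all of them. Replicate 2 therefore also lay above the lowest Panc02-SIY value, 46.1 CPM. The Tlr3 call leaves out the MC38 library with the highest level and does not stand for all untreated MC38 libraries. As means over all untreated libraries, with MC38 NT replicate 2 included, the cDC1-like share of barcodes was 0.687% in MC38 and 0.516% in Panc02-SIY. The cDC2-like share was 2.26% and 0.530%. Of the pooled barcodes, 31 of 52 in MC38 and 40 of 141 in Panc02-SIY were cDC2-like, while 8 of 52 and 57 of 141 were cDC1-like. The part of these shares in the Tlr3 value was not tested. In T cell-like cells, none of 4 genes was called untreated (11.0% of all genes, 1 of the 4 at an unadjusted p under 0.05) or irradiated (10.6%, 2 of the 4) by edgeR. Tlr2 there had 2.29 ± 0.84 (adjusted p = 0.103) and 1.90 ± 0.82 (adjusted p = 0.180), so the untreated value lay just outside the threshold. These values rest on few UMIs, since all T cell-like barcodes of MC38 held 9 Tlr2 UMIs in NT (70 barcodes) and 9 in RT (93 barcodes). Tlr2 was called in 11 of 21 other settings in untreated tumors and in 3 of 20 in irradiated tumors. The settings draw on the same libraries and are not independent of each other.  Tlr2 in T cell-like cells therefore stays uncertain. It passed in both when all barcodes were counted (adjusted p = 0.0323 and 0.0386), with DESeq2 (2.38 with adjusted p = 0.0133, and 2.08 with adjusted p = 0.0454) and at the finer clustering (adjusted p = 0.0110 and 0.0343). In untreated tumors it also passed with the replicate block (2.71, adjusted p = 0.0607) and without Panc02-SIY NT replicate 2 (2.72, adjusted p = 0.0779). The macrophage marker list read 560 to 2916 CPM in T cell-like cells of MC38 NT and 162 to 310 CPM in those of Panc02-SIY NT, with no gene of the list at 0.

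The rest of the pathway was followed through 46 listed genes, of which 43 were tested over all CD45+ barcodes. After radiation 12 of the 43 were higher and none lower in Panc02-SIY, where 14.7% of all genes were called and 7.69% were called higher. In MC38 7 of the 43 were higher and none lower. There 11.7% of all genes were called, and 901 of 12447 were called higher. The counts of the list were not tested against these shares. The genes of the list with the smallest adjusted p in Panc02-SIY were Il1b, an inflammatory cytokine (1.10 ± 0.12), Cd14, the co-receptor that hands lipopolysaccharide to Tlr4 (1.08 ± 0.16), the transcription factor Irf5 (0.87 ± 0.13) and Ptgs2, an enzyme of prostaglandin synthesis (0.98 ± 0.19). In MC38 they were Il1b (0.65 ± 0.12), the NF-κB regulator Nfkbiz (0.56 ± 0.13), the interferon regulatory factor Irf7 (0.63 ± 0.16) and the kinase Irak2 (0.46 ± 0.13).

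In macrophage-like cells, where 41 were tested, 5 were higher after radiation in MC38 and 2 in Panc02-SIY, and none was lower. These counts were at the shares of all genes called there (13.4% and 5.10%) and are no result about the list. Il1b (0.72 ± 0.17 in MC38 and 0.69 ± 0.18 in Panc02-SIY) and Nfkbiz (0.58 ± 0.15 and 0.72 ± 0.15) were higher in both. No listed pathway gene was called by edgeR in neutrophil-like (32 tested, 2 at an unadjusted p under 0.05), B cell-like (10 tested, 0) or conventional DC-like cells (32 tested, 6) of Panc02-SIY, and no other tool was run on this list. In monocyte-like cells 1 of 38 was lower, the scavenger receptor Cd36 (-1.70), and in NK cell-like cells 1 of 34 was higher, Nfkbiz (0.58). In T cell-like cells 2 of 36 were higher, Ptgs2 (1.15) and the kinase Map3k7 (0.44). The shares of all genes called were 2.29% in NK cell-like and 3.85% in T cell-like cells, close to these counts. In monocyte-like cells the share was 0.647%, and the 1 gene called there was not tested against it. The shares were 0.0573% in neutrophil-like, 0% in B cell-like and 0.201% in conventional DC-like cells, so few calls of any genes were made there.

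Between untreated tumors, macrophage-like cells of MC38 had 9 of the 41 genes higher and 16 lower, where 49.2% of all genes were called. Irf7 (1.98 ± 0.21) and Il1b (1.33 ± 0.18) were higher, and Nfkbiz (-1.61 ± 0.15) and Tlr12, a receptor for profilin (-2.82 ± 0.32), were lower. Over all CD45+ barcodes 19 of 43 were higher and 12 lower, against 61.1% of all genes. The smallest adjusted p among them were those of Cd14 (4.31 ± 0.18), Irf7 (2.83 ± 0.17), Irf5 (2.22 ± 0.14) and Il1b (1.89 ± 0.13). Cd14 was also the only listed pathway gene with a called interaction over all CD45+ barcodes, -1.17 ± 0.23 (adjusted p = 0.0776), the same direction as Tlr2.

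Finally, each gene's pattern over 19 class and group means was compared with that of 5968 other genes. The closest to Tlr2 was Cd14 (Pearson r = 0.98), the co-receptor named above, followed by C3 and Sirpb1c (both 0.96). Tlr6 was closest to Trem3 and to Csf3r, a neutrophil marker of the naming list (both 0.96), Tlr4 to Sirpb1b (0.96), Tlr13 to Tnfaip2 (0.97), Tlr8 to Lpl (0.97), Tlr3 to Acvrl1 (0.955) and Myd88 to Atp6v1a (0.96). Tlr7 (Usf1, 0.89) and Tlr1 (Zfp385a, 0.87) had no gene outside the list as close. The class of cDC1-like cells, where Tlr3 was highest, had too few libraries to be among the 19 means, and Tlr9 stayed at 2.82 CPM or less in all of them, so no gene is named for it. The means share libraries and classes, so these values describe likeness over classes and carry no test.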

How the data were processed

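The deposited files were UMI counts per gene and cell barcode for 16 libraries, made by the authors with Cell Ranger 3.1.0 after bcl2fastq 2.20.0 on mm10, as named in the submitters' processing notes. An aggregated matrix was not used. The genes and lists examined here were chosen with earlier results of these data known.

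Each barcode was kept in the library of its tumor with most UMIs, leaving medians of 2991 to 11097 UMIs per barcode and library. Barcodes were clustered with scanpy 1.11.5 (2000 variable genes, 30 components, 20 neighbors, Leiden resolution 1) without the 10 genes and the 46 pathway genes, and clusters were named from marker lists. cDC1-, cDC2- and mature DC-like barcodes were pooled as conventional DC-like for tests, a choice made after the data were seen. Scrublet marked 0.3515% of barcodes, too few to be used, so removing the 5% with the highest scores served as an alternative. UMI counts were summed per library and class (at least 10 barcodes per library, 3 libraries per group) and tested with edgeR 4.0.16 (quasi-likelihood, TMM, robust, filterByExpr) in R 4.3.3 over all 4 groups. The SE is the log2 fold change divided by the square root of F, and intervals are 1.96 SE to either side. edgeR bounds some p-values, so a p can be larger than the SE alone would give. Alternatives were DESeq2 1.42.0, other scalings and thresholds, all barcodes in every library, a cell filter (barcodes under 500 genes or over 10% mitochondrial UMIs dropped), Leiden resolution 2, a marker gate (the class with most marker UMIs in each barcode), counts thinned to the shallowest library and single libraries left out. The test was checked on simulated data. All 10 genes are named, and of the pathway list at most 4 called genes per class and comparison, by smallest adjusted p. CPM and intervals cover counting error of UMIs and spread between libraries only.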

Additional observations from a re-analysis of the deposited data

Results flagged for a closer look

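Of 106 groups of 4 libraries examined, 8 held 1 library far from the other 3 by Dixon's criterion, which chance alone would flag in about 5% of groups. Over all CD45+ barcodes, Tlr3 in Panc02-SIY NT replicate 1 read 5.54 CPM (36 UMIs) against 13.3 to 14.2 CPM in the others. Tlr7 in Panc02-SIY NT replicate 3 read 13.97 CPM (165 UMIs) against 6.82 to 7.54 CPM. Tlr4 in MC38 NT replicate 3 read 13.7 CPM (84 UMIs) against 17.4 to 17.8 CPM, and in MC38 RT replicate 2 it read 16.01 CPM (46 UMIs) against 20.96 to 21.65 CPM. Tlr6 in MC38 RT replicate 4 read 3.53 CPM (30 UMIs) against 6.96 to 7.22 CPM.

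In macrophage-like cells, Tlr3 in Panc02-SIY NT replicate 1 read 9.38 CPM from 1 UMI against 24.1 to 25.7 CPM. Tlr6 in Panc02-SIY RT replicate 1 read 37.5 CPM from 12 UMIs against 10.3 to 14.7 CPM. In monocyte-like cells, Tlr6 in Panc02-SIY RT replicate 4 read 17.4 CPM (49 UMIs) against 24.8 to 26.1 CPM.

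The response of Tlr2 to radiation over all CD45+ barcodes differed between the tumors by the edgeR interaction test (-1.10 ± 0.21 on the log2 scale, adjusted p = 0.0776). The shares of monocyte- and neutrophil-like cells moved with it in Panc02-SIY, and their part in the difference was not tested beyond the value without them given above.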

How the results depend on the processing

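Over all classes, 1 of the 10 genes was called after radiation in MC38 (Tlr4 in macrophage-like cells). The count was 0 at an adjusted p under 0.05, at a log2 fold change over 0.58, with RLE scaling, library size only, no filter, the replicate block, DESeq2, all barcodes, the cell filter, doublets removed, resolution 2, the marker gate or thinned counts, and 0 to 1 when single libraries were left out. The 7 calls of Panc02-SIY became 4 at a log2 fold change over 0.58 and 0 without monocyte- and neutrophil-like barcodes, and 6 to 9 with single libraries left out. The 14 calls between untreated tumors became 7, and the 14 between irradiated tumors 8, without macrophage-like barcodes, and ran from 13 to 16 and from 12 to 15 with single libraries left out. The 1 interaction call became 0 at an adjusted p under 0.05 and without monocyte- and neutrophil-like or macrophage-like barcodes, 2 with DESeq2, 3 with library size only and with all barcodes, and 0 to 1 with single libraries left out. Settings that leave out a cell class were chosen after seeing the data, and the cause of these moves was not tested. The shares of all genes called under those settings are not given here.

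Directions reversed in 6 cases, all from leaving out a class. Without macrophage-like barcodes, Tlr4 had -0.53 between untreated tumors, and Tlr1 -0.24, Tlr4 -1.20, Tlr7 -0.026 and Tlr13 -0.38 between irradiated tumors. Without monocyte- and neutrophil-like barcodes, Tlr6 had 0.56 between irradiated tumors.

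Replicate numbers were not used as pairs in the main test. Same-numbered libraries correlated at 0.08, -0.04, 0.05 and 0.02 in MC38 and at 0.40, -0.16, 0.32 and 0.75 in Panc02-SIY. In Panc02-SIY replicates 1, 3 and 4 but not 2 correlated best with their own number. The libraries of that tumor may therefore share structure by replicate number, which the main test leaves out. With the replicate block the counts of calls were 0 and 8 after radiation in MC38 and Panc02-SIY, 17 and 15 between tumors and 1 for the interaction. The block added Tlr1 in T cell-like cells after radiation in Panc02-SIY, Tlr2 in T cell-like and Tlr6 in CD45+ and macrophage-like cells between untreated tumors, and Tlr8 in CD45+ cells between irradiated tumors. The shared barcodes limit the MC38 libraries, which kept 147 to 609 barcodes each. The 769 sequences in all 8 MC38 libraries stood in NT and RT alike, so the group of such a barcode rests on its UMI count alone. The part of this in the MC38 radiation values, in the interaction and in the differences between tumors was not tested beyond counting all barcodes. Tlr9 and, in most classes, Tlr8 were too sparse for small changes to be detected.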
